A study of Mus musculus with 12 samples.

Results

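The T cell receptor (TCR) repertoire of CD8+ T cells from tumors of IL-10-Fc-treated mice was compared with that from tumors of mice given control IgG. Members were all clonotypes listed for these 2 tumor libraries, 112908 of the 1502315 in the 12 libraries of the series: 93553 in the IL-10-Fc library and 19355 in the control library. A clonotype is 1 combination of chain, V segment, J segment and CDR3 nucleotide sequence, and its size is the number of unique molecular identifiers (UMIs, tags that mark single cDNA molecules) seen in at least 3 reads. The study sequenced CD8+ T cells of 3 tissues (tumor, spleen and tumor-draining lymph node, tdLN) under 4 treatments, with 1 library for each. The labels of the tumor and spleen libraries name CD8, whereas those of the tdLN libraries do not.

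Both groups were wild-type C57BL/6 mice, 6 to 8 weeks old when bought, that carried HNSCC/Q1-2 tumors, grown from a luciferase subline of the mouse oral cancer line MTC-Q1. They received either control IgG or IL-10-Fc, a human interleukin-10 joined to an antibody Fc part, in 3 doses at intervals of 3 days, and the labels state 30 mg/kg as the equivalent dose of each agent. RNA of 3 mice was pooled per library, so each side is 1 library and no difference between the treatments could be tested. Every interval of a share below is an exact 95% binomial (Clopper-Pearson) interval. Intervals of mean CDR3 length differences are 95% normal approximations from the SD over UMIs or clonotypes. All of them cover counting error only, and UMIs of 1 clone are not independent of each other. A share was counted as past the fold rule when it was at least 1.5-fold apart between the libraries, reached 0.1% in one of them and had intervals that did not overlap.

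Each TCR chain is assembled by joining a V and a J segment, with a D segment between them in beta and delta chains, and bases are trimmed and added at the joints. The joint encodes CDR3, the loop that contacts the antigenic peptide. A T cell clone that has expanded contributes many UMIs to 1 clonotype, so a share of UMIs follows the large clones. Counting each clonotype once gives every listed clonotype the same weight, whatever its size. A large clone may still be listed more than once, with sequences 1 base away or under several V assignments. Usage was computed in both ways.

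The sequences below are those of large clonotypes described further on. In each, capitals mark the bases outside the longest match to the germline V segment (from the codon of the conserved cysteine) and to the germline J segment of GRCm38, and lower case marks the matching ends. The first set holds the largest beta and alpha clonotypes of each library.

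Control IgG, Trbv5-Trbj1-2, 11032 UMIs: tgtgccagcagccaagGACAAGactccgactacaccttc
Control IgG, Trbv19-Trbj2-1, 4434 UMIs: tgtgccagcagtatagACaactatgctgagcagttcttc
Control IgG, Trav9n-3-Traj9, 6151 UMIs: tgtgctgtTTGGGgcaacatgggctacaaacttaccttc
IL-10-Fc, Trbv14-Trbj2-1, 476 UMIs: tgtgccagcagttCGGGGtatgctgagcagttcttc
IL-10-Fc, Trav7d-2-Traj22, 1971 UMIs: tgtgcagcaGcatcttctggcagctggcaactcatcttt

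The second set shows 5 nucleotide versions of 1 beta CDR3 in the control library, each at 0.1% or more of TRBC UMIs, all Trbv17 with Trbj1-1 and all encoding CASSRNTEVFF.

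Version of 1843 UMIs: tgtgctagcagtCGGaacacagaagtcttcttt
Version of 924 UMIs: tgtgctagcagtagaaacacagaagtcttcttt
Version of 568 UMIs: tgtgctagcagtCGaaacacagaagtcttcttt
Version of 298 UMIs: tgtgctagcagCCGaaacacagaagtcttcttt
Version of 270 UMIs: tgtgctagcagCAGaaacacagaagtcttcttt

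The third set shows the 4 versions of at least 0.1% of 1 beta CDR3 in the IL-10-Fc library, all Trbv16 with Trbj2-7 and all encoding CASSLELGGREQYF.

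Version of 468 UMIs: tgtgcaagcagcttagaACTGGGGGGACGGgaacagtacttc
Version of 352 UMIs: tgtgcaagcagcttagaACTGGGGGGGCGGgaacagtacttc
Version of 326 UMIs: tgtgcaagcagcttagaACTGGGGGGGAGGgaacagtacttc
Version of 285 UMIs: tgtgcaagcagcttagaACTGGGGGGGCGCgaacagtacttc

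In the annotation of GRCm38 (mm10), Trbv5 lies at chr6:41062332-41062803, Trbv17 at chr6:41163062-41163556, Trbv16 at chr6:41151740-41152230 and Trbv29 at chr6:41271394-41271881, all on the + strand. Trbj1-1 lies downstream of them at chr6:41533864-41533911, Trbj1-2 at chr6:41534001-41534048 and Trbj2-7 at chr6:41543810-41543856. On chromosome 14, Trav7d-2 lies at chr14:52683964-52684472, Trav9n-3 at chr14:53231433-53232102, Traj22 at chr14:54197248-54197307 and Traj9 at chr14:54209393-54209450, also on the + strand.

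The libraries had similar UMI totals but very different numbers of clonotypes. The IL-10-Fc library held 130104 beta (TRBC) UMIs in 54779 clonotypes and 98821 alpha (TRAC) UMIs in 38233 clonotypes. The control library held 104036 TRBC UMIs in only 9466 clonotypes and 79926 TRAC UMIs in 9468 clonotypes. At equal UMI numbers, 49716 TRBC clonotypes would be expected in the IL-10-Fc library against the 9466 of the control, and 35083 TRAC clonotypes against 9468. The tables hold TCR chains and no other gene, so the CD8 identity of the cells could not be checked against Cd8a or another marker. Fewer cells of a type and less RNA per cell cannot be told apart in such pooled RNA.

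Large clones made up far more of the control library. Clonotypes of at least 0.1% of a chain's UMIs numbered 76 in control TRBC and together took 50.2% of its UMIs, against 23 clonotypes and 5.11% in IL-10-Fc. For TRAC, 76 such clonotypes took 38.9% in the control and 15 took 4.38% in IL-10-Fc. The first 50% of TRBC UMIs was reached with 75 clonotypes in the control and with 13407 in IL-10-Fc.

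**Figure D1:**
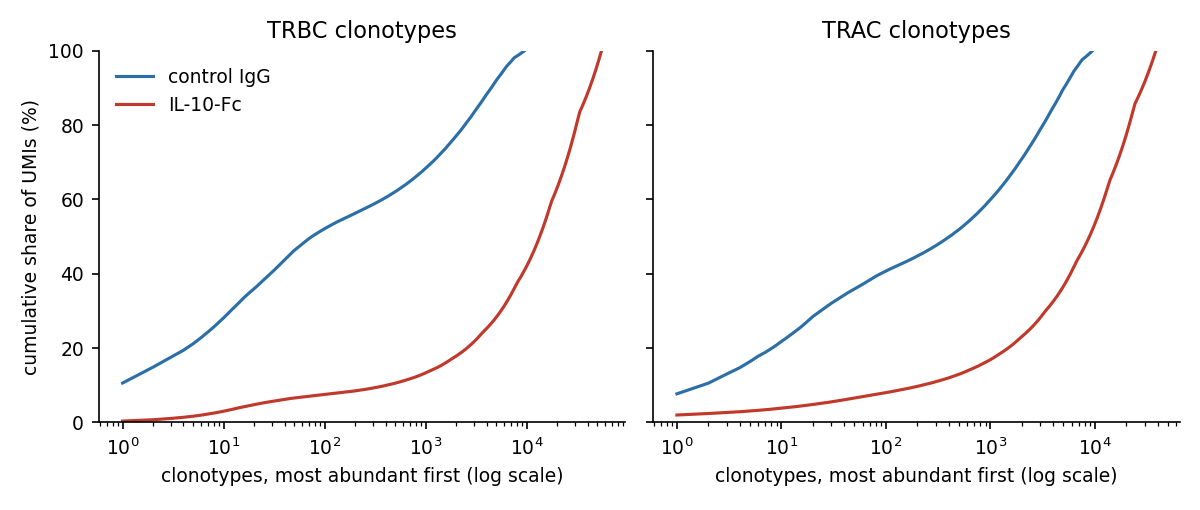
Cumulative share of UMIs (vertical axis, %) over clonotypes ordered from the most abundant (horizontal axis, log scale), for TRBC and TRAC in the control IgG (blue) and IL-10-Fc (red) tumor libraries. The 10 largest TRBC clonotypes reach 28.2% of UMIs in the control and 3.02% in IL-10-Fc.

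The leading control beta clonotype, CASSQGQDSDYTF with Trbv5 and Trbj1-2, held 10.6% of TRBC UMIs (interval 10.4 to 10.8). It was not listed in the IL-10-Fc tumor library. With the count of 0 set to a floor of 3 UMIs (0.00231%), its share was 4599-fold lower there. Among the other 10 libraries it was listed in 1, the tdLN of control mice, with 56 UMIs. The next control clonotypes were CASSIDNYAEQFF (Trbv19, 4.26%), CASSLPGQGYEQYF (Trbv19, 2.68%) and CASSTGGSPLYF (Trbv12-1, 1.87%), none of them listed in the IL-10-Fc tumor. In IL-10-Fc the 10 largest TRBC clonotypes lay between 0.250% and 0.366%, led by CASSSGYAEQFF with Trbv14 and Trbj2-1. Of these 10, 9 were not listed in the control tumor. Absence from the other tumor was the rule for clonotypes of any size. By V, J and CDR3 nucleotides, 0.537% of all IL-10-Fc and 3.11% of all control TRBC clonotypes were listed in the other tumor.

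The leading alpha clonotypes differed in the same way. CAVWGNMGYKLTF with Trav9n-3 and Traj9 held 7.70% of control TRAC UMIs and was not listed in IL-10-Fc, where the floor of 3 UMIs is 0.00304%. In IL-10-Fc, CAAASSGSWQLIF with Trav7d-2 and Traj22 held 1.99% of TRAC UMIs, and the same nucleotide sequence had 0.0313% in the control. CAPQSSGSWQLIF, which also uses a Trav7 gene and Traj22, came next in IL-10-Fc with 0.408%.

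Few clonotypes were common to the 2 tumors. By V, J and CDR3 nucleotides, 294 TRBC clonotypes were in both, 0.537% of the IL-10-Fc list and 3.11% of the control list. These held 1.05% of UMIs in IL-10-Fc and 8.06% in the control. TRAC overlapped more, with 996 clonotypes, 2.61% of the IL-10-Fc list and 10.5% of the control list. Of the 76 large control TRBC clonotypes, 7 were listed in IL-10-Fc, at 0.362% of its UMIs in all, and of the 23 large IL-10-Fc clonotypes 1 was listed in the control. By V, J and CDR3 amino acids the shared lists were longer, 1005 in TRBC (1.95% of the IL-10-Fc list and 11.3% of the control list) and 2572 in TRAC (8.64% and 32.0%).

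The CDR3 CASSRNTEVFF was the clearest shared beta chain. Over all its nucleotide versions with Trbv17 and Trbj1-1, it held 5732 UMIs in the control, 5.51% (interval 5.37 to 5.65) of TRBC, and 463 UMIs in IL-10-Fc, 0.356%. It came from 24 nucleotide versions in the control, 6 of them at 0.1% or more, and from 7 in IL-10-Fc, 1 of them at 0.1% or more. When a sequence 1 base from another with at least 10 times its UMIs was merged into it, 8 versions stayed in the control and 2 in IL-10-Fc. The version with no base outside the germline matches was the largest in IL-10-Fc, with 384 UMIs, and had 924 UMIs in the control. This chain took 59.5% of all Trbv17 UMIs in the control and 7.87% in IL-10-Fc. It was higher in each of the 4 tumor libraries (0.145% with BF10, an antibody to CSF1R fused to IL-10, and 1.99% with anti-CSF1R antibody) than in any of the 8 spleen and tdLN libraries, where it lay between 0.00130% and 0.0648%.

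A Trbv26-Trbj1-4 CDR3 of 15 residues was the other beta chain at 0.3% or more in both tumors. It had 1530 UMIs (1.47%) in the control and 563 UMIs (0.433%) in IL-10-Fc. The main nucleotide version differed between the libraries, and both are shown here with the same use of capitals. The control's main version had 9 UMIs in IL-10-Fc.

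Control IgG, 1140 UMIs: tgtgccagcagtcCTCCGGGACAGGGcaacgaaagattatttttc
IL-10-Fc, 453 UMIs: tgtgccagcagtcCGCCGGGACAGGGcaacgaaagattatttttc

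This chain was scarce elsewhere, with at most 10 UMIs in any of the other 10 libraries.

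The Trbv16-Trbj2-7 CDR3 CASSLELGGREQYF ran the opposite way. It held 1447 UMIs in IL-10-Fc, 1.11% (interval 1.06 to 1.17), in 14 nucleotide versions, and 1 UMI in the control tumor. After merging, 4 versions stayed in IL-10-Fc. The anti-CSF1R and BF10 tumors also held it, at 1.03% and 0.203%, so the control tumor was the lowest of the 4. The same last 8 residues, LGGREQYF, occurred with other V genes in 452 UMIs (0.347%) of IL-10-Fc, among them a Trbv3 clonotype, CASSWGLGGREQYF, of 289 UMIs, and in 55 UMIs (0.0529%) of the control. These chains were picked after their values were seen and are given as a description.

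Trbv usage differed widely by UMIs and little by clonotypes. By UMIs, 15 of the 22 Trbv genes at 0.1% or more (68.2%) passed the fold rule, 9 of them higher and 6 lower in IL-10-Fc. With each clonotype counted once, 4 of 23 entries (17.4%) passed, 1 higher and 3 lower. The UMI shares of Trbv5 and Trbv17, both lower in IL-10-Fc, rested largely on the clones already described.

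Trbv29 was the V gene with the largest excess in IL-10-Fc, in percentage points, by either count. It held 13.2% of UMIs in IL-10-Fc (interval 12.99 to 13.35) and 5.91% in the control (5.77 to 6.05), 2.23-fold higher. By clonotypes it had 7688 of 54779 (14.03%, 13.7 to 14.3) against 801 of 9466 (8.46%, 7.91 to 9.04), 1.66-fold higher. No single clone carried it in IL-10-Fc, where its largest clonotype was 0.636% of its UMIs. Without the clonotypes of at least 0.1%, Trbv29 was at 13.9% against 10.04% of UMIs, below the fold rule. Among clonotypes of at least 2 UMIs it was at 12.6% against 8.54% when each was counted once, also below the rule. Trbv3 (7.74% against 3.37% of UMIs) and Trbv14 (4.76% against 1.99%) followed in size by UMIs. Without clonotypes of at least 0.1% they were below the rule, and by clonotypes they lay at 7.43% against 6.43% and at 4.68% against 4.30%.

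Trbv5 was the V gene that was lower by the most percentage points. It held 2.53% of UMIs in IL-10-Fc and 14.01% in the control, and the single clone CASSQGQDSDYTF was 75.7% of the control value. Without the leading clonotype of each library it was at 2.54% against 3.81%, below the rule. Without all clonotypes of at least 0.1% it was at 2.20% against 4.04% of UMIs, past the rule. By clonotypes, where each listed clonotype counts once, Trbv5 had 2.37% (2.24 to 2.50) against 4.39% (3.99 to 4.83), 0.538 of the control share. With neighbouring sequences merged these were 2.35% and 3.74%. Trbv20 was likewise lower by both counts, at 1.20% against 2.80% of UMIs and 1.296% against 2.54% of clonotypes. Without clonotypes of at least 0.1% Trbv20 also stayed past the rule, at 1.26% against 2.52% of UMIs. Trbv17 (4.52% against 9.26%) and Trbv26 (3.23% against 5.75%) were lower by UMIs, and by clonotypes were at 3.89% against 4.22% and at 2.58% against 3.24%. The remaining entry lower by clonotypes, listed as Trbv2 or Trbv18 together, had 5 clonotypes in IL-10-Fc and 10 in the control, all of them with a CDR3 of over 100 residues.

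The Trbv13 family (Vbeta8) did not pass the rule, with 14.2% against 13.4% of UMIs and 15.5% against 16.7% of clonotypes. Neither did Trbv19, at 10.7% against 13.2% of UMIs and 8.68% against 8.55% of clonotypes, although 2 control clones of 4434 and 2789 UMIs were among its 13718 control UMIs, nor Trbv16, at 12.3% against 8.94% of UMIs and 12.2% against 11.6% of clonotypes.

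**Figure D2:**
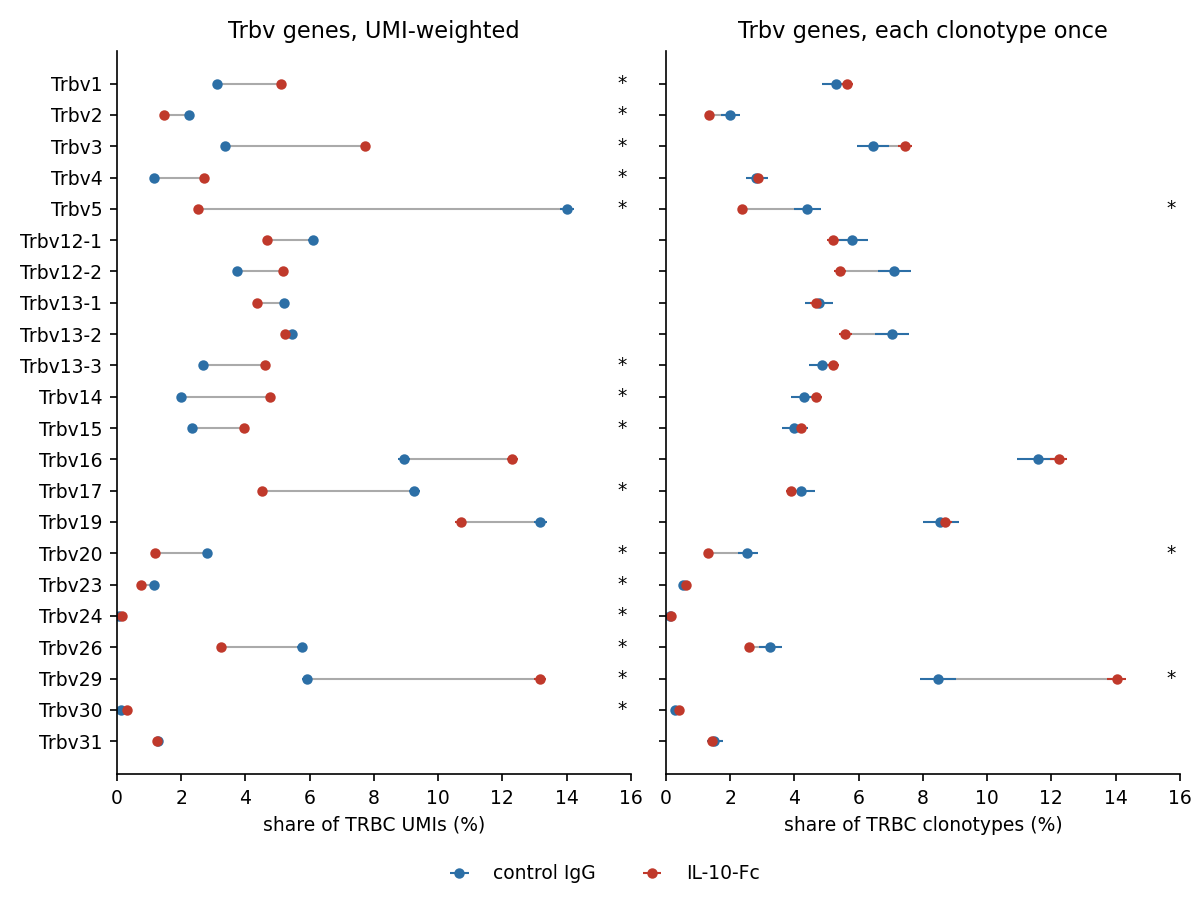
Share of each Trbv gene (horizontal axis, %) among TRBC UMIs (left) and TRBC clonotypes (right) in the control IgG (blue) and IL-10-Fc (red) tumor libraries. Bars are exact 95% intervals for counting error, and asterisks mark genes past the fold rule; Trbv5 lies at 2.53% and 14.01% of UMIs, and Trbv29 stands apart in both panels.

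The 3 genes that differed by clonotypes are set beside the other tissues in the plot by tissue. Trbv29 had 9.82% to 14.2% of clonotypes in the 4 spleens and 7.82% to 8.38% in the 4 tdLNs. The IL-10-Fc tumor, at 14.03%, lay in the range of the spleens, and the control tumor, at 8.46%, lay just above that of the tdLNs. For Trbv5 the spleens held 2.54% to 3.14% and the tdLNs 4.00% to 4.49%, with the IL-10-Fc tumor at 2.37% and the control tumor at 4.39%. For Trbv20 the spleens held 1.37% to 1.83% and the tdLNs 1.93% to 2.18%, with the tumors at 1.296% and 2.54%. Within spleen and within tdLN, IL-10-Fc against control gave ratios of 1.14 and 1.07 for Trbv29, 0.870 and 0.962 for Trbv5, and 0.829 and 0.908 for Trbv20, none of them past the fold rule. The anti-CSF1R tumor library was small, with 2493 TRBC clonotypes.

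**Figure D3:**
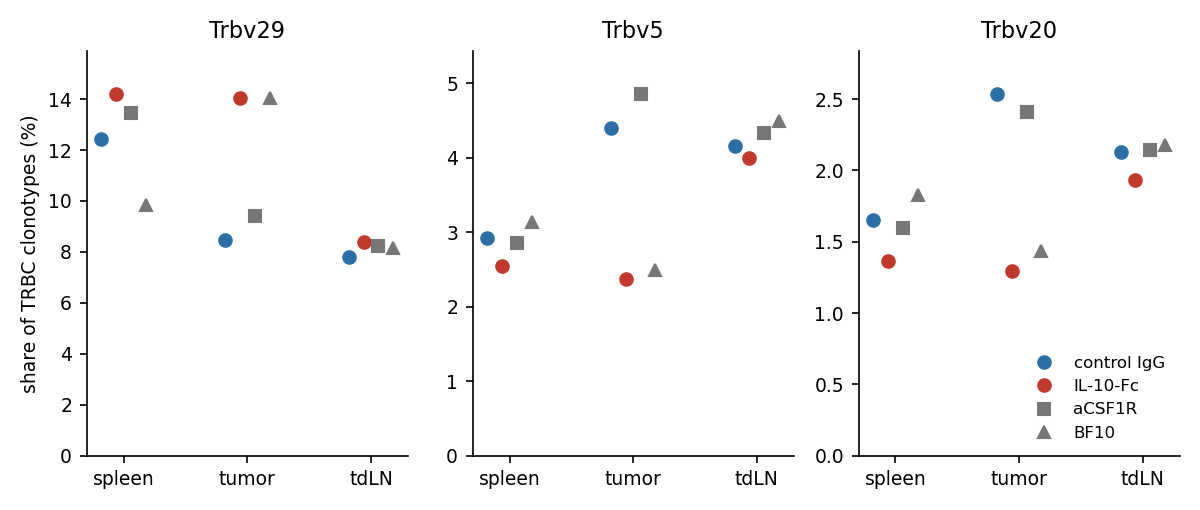
Share of TRBC clonotypes (vertical axis, %) that use Trbv29, Trbv5 or Trbv20 in the 12 libraries, by tissue, each point 1 library. For Trbv29 the IL-10-Fc and BF10 tumors lie at 14.03%, among the spleens, and the control and anti-CSF1R tumors at 8.46% and 9.43%, between the tdLNs and the spleens.

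Among J segments, Trbj1-2 differed most. It was in 5.62% of TRBC UMIs in IL-10-Fc and 14.5% in the control, and the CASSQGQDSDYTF clone was 73.0% of the control value. Without the leading clonotype of each library the order turned, to 5.64% against 4.39%. Of 12 Trbj segments 3 passed the rule by UMIs (25.0%), Trbj1-2 and Trbj1-6 (2.56% against 4.64%) lower and Trbj2-3 (8.93% against 5.90%) higher. By clonotypes 0 of 12 passed (0.0%), with Trbj1-2 at 5.68% against 6.80%, Trbj1-6 at 2.47% against 3.13% and Trbj2-3 at 8.98% against 7.88%. The Trbj1 cluster as a whole held 29.5% of UMIs in IL-10-Fc and 42.6% in the control, and 29.1% against 33.6% of clonotypes.

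V-J pairs repeated this picture. By UMIs 161 of 199 TRBC pairs (80.9%) passed, 130 higher and 31 lower, and by clonotypes 30 of 212 (14.2%), 10 higher and 20 lower. Clonotypes of at least 0.1% took 50.2% of control and 5.11% of IL-10-Fc TRBC UMIs. A pair without such a clonotype therefore had a smaller part of the control total left to it. Without these clonotypes fewer pairs passed by UMIs, as given in the closing section. By UMIs, the pairs lower by the most were Trbv5-Trbj1-2 (0.0646% against 10.8%), Trbv17-Trbj1-1 (0.667% against 5.78%) and Trbv19-Trbj2-1 (1.96% against 5.39%). Those higher by the most were Trbv29-Trbj2-7 (2.52% against 0.884%), Trbv3-Trbj2-7 (1.88% against 0.506%) and Trbv16-Trbj2-7 (3.76% against 2.51%). By clonotypes Trbv29 led with Trbj2-7 (2.75% against 1.39%), Trbj2-1 (1.83% against 1.06%) and Trbj2-4 (1.24% against 0.518%). Trbv5-Trbj1-2 and Trbv17-Trbj1-1 were also the lowest by clonotypes, at 0.0840% against 0.845% and at 0.325% against 0.940%, and Trbv13-2-Trbj1-1 followed at 0.414% against 0.739%. Clonotypes 1 base away from a much larger one add to such counts: 7.80% of control and 0.391% of IL-10-Fc TRBC clonotypes were of this kind, and with them merged 19 pairs passed.

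Alpha V usage was counted by family, which pools several genes, so its counts cannot be set beside those of single Trbv genes. By UMIs 7 of 19 (36.8%) passed, 3 higher and 4 lower. Trav14, a large family with several near-identical copies, held 14.4% in IL-10-Fc and 8.97% in the control. Trav19 (1.28% against 0.779%) and Trav2 (0.403% against 0.201%) were the others higher. Without clonotypes of at least 0.1% none of these 3 passed, with Trav14 at 14.7% against 12.6%, Trav19 at 1.34% against 1.28% and Trav2 at 0.421% against 0.330%. By clonotypes Trav14 held 14.7% against 11.5%, Trav2 0.513% against 0.380% and Trav19, in the opposite order, 1.22% against 1.29%. Trav9 held 7.14% against 13.6%, and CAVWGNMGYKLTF was 56.4% of the control value. Without the leading clonotypes the order turned, to 7.29% against 6.45%. Without all clonotypes of at least 0.1% the order of Trav9 did not turn, at 7.20% against 7.39%. Trav5 (2.81% against 5.85%) and Trav15 (0.776% against 1.56%) came next. By clonotypes Trav9 was at 8.03% against 9.07% and Trav5 at 2.75% against 3.25%, whereas Trav15 was at 0.918% against 0.887%. By clonotypes 1 of 19 (5.26%) passed, Trav11, at 0.246% against 0.422%.

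Traj segments gave 19 of 41 (46.3%) by UMIs, 12 higher and 7 lower, and 1 of 41 (2.44%) by clonotypes. Traj22 was highest over the control in points, at 10.1% against 6.34%, with the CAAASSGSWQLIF clonotype at 19.7% of its IL-10-Fc UMIs. Without clonotypes of at least 0.1% the order turned, to 7.78% against 8.54%. Traj12 (3.69% against 2.20%) and Traj49 (3.26% against 2.02%) held no clonotype of that size in either library. When such clonotypes of other segments were left out of the totals, both were below the rule, at 3.86% against 3.60% and at 3.41% against 3.31%. By clonotypes Traj12 was at 3.49% against 3.36%, and Traj49 at 3.39% against 3.70%. Traj9 was at 3.36% against 11.1%, Traj53 at 1.15% against 3.96% and Traj32 at 2.42% against 4.21%. For Traj9 the order also turned without the clonotypes of at least 0.1%, to 3.51% against 3.43%. By clonotypes Traj22 was at 6.92% against 7.82%, Traj9 at 3.43% against 3.57% and Traj32 at 2.70% against 3.11%. Traj53 was the segment that passed by clonotypes, with 375 of 38233 in IL-10-Fc and 141 of 9468 in the control. Its main clone, Trav5d-4 with a 15-residue CDR3, had 2296 UMIs in the control and 151 in IL-10-Fc, and no base of it lay outside the germline matches.

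Control IgG, Trav5d-4-Traj53, 2296 UMIs: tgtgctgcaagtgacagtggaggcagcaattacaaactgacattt

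Usage along the Traj locus was nearly level. Traj61 to Traj40, the segments nearest the V genes, held 21.4% against 21.5% of UMIs, Traj39 to Traj21 55.3% against 53.0%, and Traj20 to Traj1 23.3% against 25.5%. By clonotypes these blocks held 22.8% against 24.3%, 53.2% in both, and 24.0% against 22.5%.

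Of the alpha V-J pairs, 208 of 312 (66.7%) passed by UMIs, 169 higher and 39 lower, and 27 of 347 (7.78%) by clonotypes, 14 higher and 13 lower. Trav7-Traj22 (3.25% against 1.27%), Trav14-Traj22 (1.83% against 1.17%) and Trav7-Traj31 (0.929% against 0.275%) were higher by the most. Trav9-Traj9 (0.216% against 8.97%), Trav6-Traj23 (0.542% against 3.59%) and Trav5-Traj53 (0.298% against 3.34%) were lower by the most. By clonotypes the pairs higher were led by Trav12-Traj31 (0.832% against 0.528%), Trav14-Traj27 (0.481% against 0.222%) and Trav7-Traj31 (0.704% against 0.454%). The pairs lower were led by Trav9-Traj9 (0.259% against 0.898%), Trav13-Traj33 (0.296% against 0.676%) and Trav13-Traj22 (0.662% against 1.003%). Clonotypes 1 base away from a much larger one add to these counts too. They were 8.33% of control and 3.03% of IL-10-Fc TRAC clonotypes. With them merged fewer pairs passed by clonotypes, as given in the closing section.

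CDR3 length had a median of 14 residues in both libraries and both chains, by either count. The UMI-weighted mean of TRBC was 13.9 residues in IL-10-Fc and 13.6 in the control, a difference of 0.282 (counting interval 0.263 to 0.301). In the control 28.1% of TRBC UMIs had 13 residues, the length of its 2 largest clones, and 8.24% had 11, the length of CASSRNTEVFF, against 18.5% and 4.88% in IL-10-Fc. Without the clonotypes of at least 0.1% the difference was -0.11. By clonotypes it was -0.08 (-0.15 to -0.01), and this rested on a few entries of implausible length: 10 control and 5 IL-10-Fc clonotypes had over 100 residues, and with CDR3s of at most 20 residues only the difference was 0.016. For TRAC the IL-10-Fc CDR3s were shorter on average by either count, by -0.23 residues over UMIs and by -0.10 over clonotypes (-0.13 to -0.07). TRAC CDR3s of 12 residues were 14.97% of UMIs in IL-10-Fc and 9.87% in the control, and 15.04% against 13.1% of clonotypes.

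**Figure D4:**
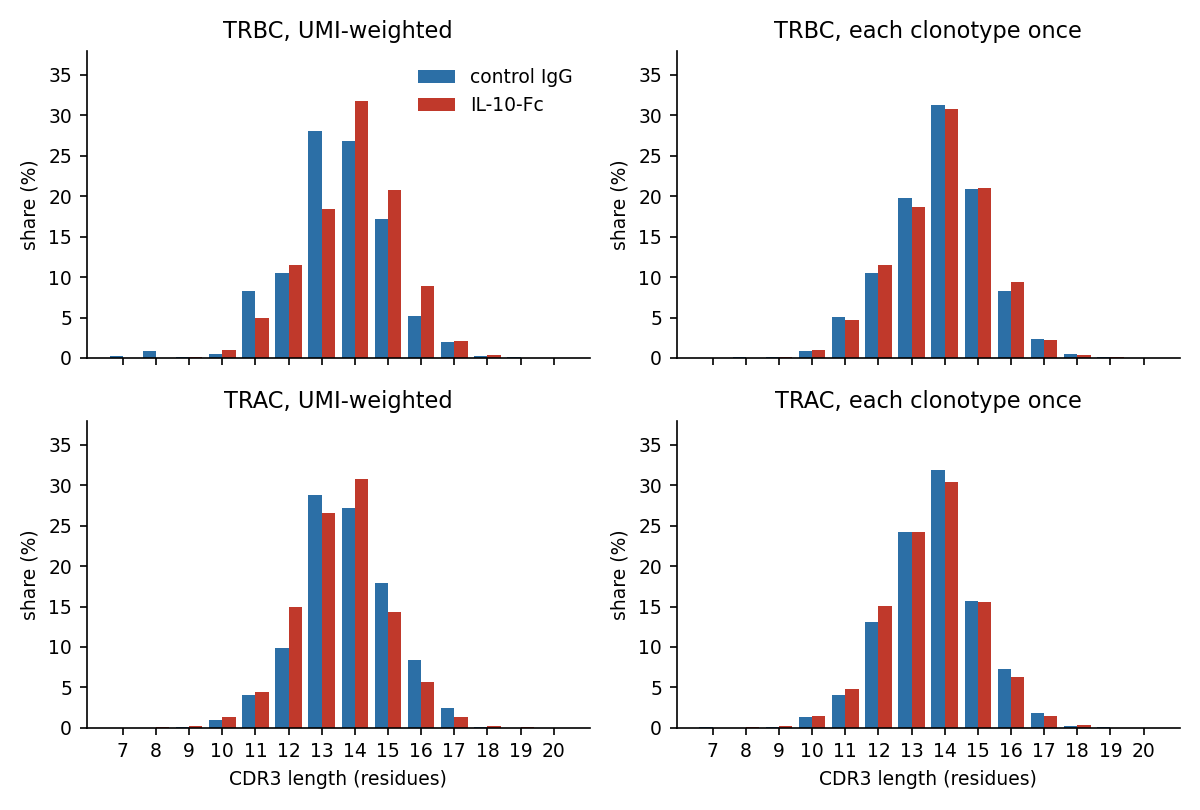
Share (vertical axis, %) of TRBC (top) and TRAC (bottom) UMIs (left) or clonotypes (right) by CDR3 length in residues, in the control IgG (blue) and IL-10-Fc (red) tumor libraries. The control peak at 13 residues in TRBC UMIs, 28.1%, is not seen among clonotypes, where that length holds 19.7%.

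The bases outside the germline matches gave the same split. In TRBC clonotypes with 1 V and 1 J assigned they averaged 10.1 per UMI in IL-10-Fc and 8.88 in the control, and 10.2 and 10.7 per clonotype. Chains with none were 0.812% of IL-10-Fc and 1.10% of control UMIs, and 0.439% and 0.468% of clonotypes.

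Amino acid use was taken over the middle of each CDR3, leaving out the first 4 and last 4 residues. By UMIs 2 of 19 TRBC residues at 0.1% or more passed (10.5%), glutamine at 5.79% in IL-10-Fc against 9.41% and methionine at 0.286% against 0.174%. Glutamine occurs more than once in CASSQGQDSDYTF, and without the leading clonotypes it was at 5.81% against 6.20%. TRBC methionine was then at 0.287% against 0.193%, and neither residue passed. By UMIs 3 of 19 TRAC residues passed (15.8%), valine (1.05% against 0.614%) and phenylalanine (0.800% against 0.508%) higher and methionine (1.53% against 3.05%) lower. Without the leading clonotypes TRAC methionine was at 1.56% against 1.84% and phenylalanine at 0.814% against 0.544%, both below the rule. Valine still passed, at 1.07% against 0.658%. By clonotypes 0 of 19 passed in TRBC (0.0%) and 0 of 19 in TRAC (0.0%). Glycine, the most used residue of the TRBC middle, was 21.6% against 21.5% of clonotype residues. A cysteine after the first residue was in 5.26% of TRBC UMIs in IL-10-Fc and 3.29% in the control, and in 5.85% and 5.99% of clonotypes. This count covered all residues after the first, not only the middle. Within the middle, cysteine was 0.0173% against 0.0406% of TRBC residues by UMIs, and 0.0230% against 0.0799% by clonotypes. Trbv1 lay at 5.12% against 3.12% of UMIs and at 5.64% against 5.30% of clonotypes. Its part in the cysteine count was not tested.

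Gamma and delta chains, which mark gamma-delta T cells, were present in both libraries at low shares. TRGC made up 0.495% of all UMIs in IL-10-Fc (1143 UMIs) and 3.41% in the control (6555 UMIs), and TRDC 0.378% (873 UMIs) and 0.859% (1651 UMIs). Some alpha-beta T cells also carry rearranged gamma chains. The part of gamma-delta cells in the alpha and beta differences was not tested.

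Delta V usage was unlike in the 2 tumors. By UMIs 11 of 15 delta V entries (73.3%) passed, 9 higher and 2 lower, over far fewer UMIs than for alpha and beta. By clonotypes 3 of 15 (20%) passed, of 339 clonotypes in IL-10-Fc and 143 in the control. Trdv4 held 51.0% in the control (48.6 to 53.4) and 5.50% in IL-10-Fc (4.08 to 7.22), whereas Trdv2-2 held 6.12% and 34.4%. Trav13-4-dv7, a V segment used by alpha and delta chains, was at 17.0% in the control and 4.70% in IL-10-Fc. These 3 were also the entries that passed by clonotypes, with Trdv4 at 15.4% in the control and 1.77% in IL-10-Fc, Trdv2-2 at 13.3% and 33.3%, and Trav13-4-dv7 at 27.3% and 5.60%. Trdv1 (2.67% and 11.5% of UMIs) and Trav15d-2-dv6d-2 (2.24% and 7.79%) passed by UMIs only. The main Trdv4 chain, joined to Trdj2, is the near-invariant delta chain known from skin and mucosal gamma-delta T cells, and it was the leading TRDC clonotype of both libraries, with 524 UMIs (31.7%) in the control and 28 UMIs (3.21%) in IL-10-Fc. It is shown because it is 1 sequence in both, and it was listed in all of the other 10 libraries too.

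Trdv4-Trdj2, both tumors: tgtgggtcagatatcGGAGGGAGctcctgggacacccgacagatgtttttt

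For TRGC, 5 of 9 V entries (55.6%) passed by UMIs, 4 higher and 1 lower, and 1 of 9 (11.1%) by clonotypes, of 202 in IL-10-Fc and 278 in the control. Trgv2 was the most used in both, at 67.9% in IL-10-Fc and 77.5% in the control. Trgv5, at 5.34% and 11.1%, was the one lower; its chain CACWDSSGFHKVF had 681 UMIs in the control and no base outside the germline matches. Those higher in IL-10-Fc were the ambiguous entry Trgv1 or Trgv3 (7.52% against 1.08%), Trgv4 (4.90% against 1.77%), Trgv3 (4.46% against 1.62%) and Trgv7 (1.84% against 0.290%). By clonotypes Trgv4 passed, at 10.9% against 3.60%, while the intervals of Trgv5 (1.49% against 5.396%) and of the other 3 overlapped.

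**Figure D5:**
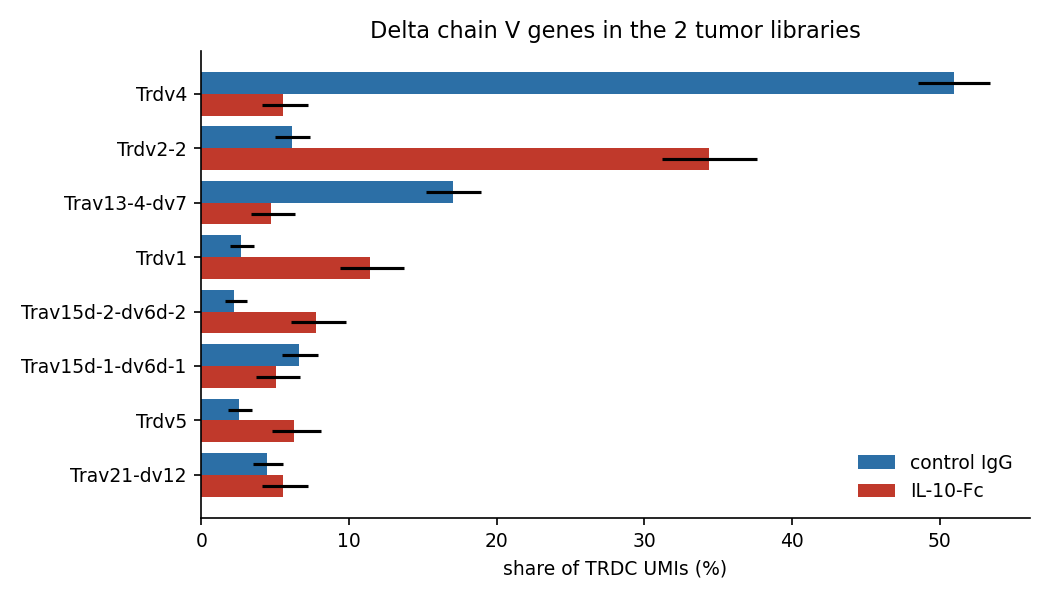
Share of TRDC UMIs (horizontal axis, %) for the 8 most used delta V entries in the control IgG (blue) and IL-10-Fc (red) tumor libraries, with exact 95% intervals for counting error. Trdv4 is 51.0% of the control and 5.50% of IL-10-Fc; Trdv2-2 is 6.12% and 34.4%.

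Alpha V-J pairs of invariant T cells were rare. They were counted by V and J alone, and their CDR3s were not checked against the invariant sequences. Trav11 with Traj18, the pair of invariant NKT cells, held 30 UMIs (0.0304% of TRAC) in IL-10-Fc and 91 UMIs (0.114%) in the control, 72 of which belonged to 1 clonotype. Trav1 with Traj33, the pair of MAIT cells, held 7 UMIs (0.00708%) and 1 UMI (0.00125%).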

How the data were processed

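TCR libraries were made with a kit that tags cDNA molecules with UMIs, from RNA of CD8+ cells isolated with magnetic beads, and the authors built clonotype tables with the kit maker's analysis portal (mm10 in the submitters' processing notes; versions are not given in the sources used here). The deposited counts are numbers of UMIs for each clonotype, and the column used needs 3 or more reads behind a UMI. The deposited fraction (frequency) equals each clonotype's share of its chain's UMIs and was only used as a check. Here shares were computed per chain with Python 3.11.15, pandas 2.3.3 and SciPy 1.17.1, over 12 libraries for context. UMI totals in the 2 tumor libraries were 230941 (IL-10-Fc) and 192168 (control). With 1 library a side no test was run. Intervals cover counting error only, and in ratios a count below 3 UMIs was set to 3. Trav genes were grouped by family, since 25.8% (IL-10-Fc) and 14.1% (control) of TRAC UMIs were assigned to several V or J segments. Clonotypes with undetermined residues (28 TRAC and 63 TRBC in IL-10-Fc, 11 and 31 in the control) were left out of length and residue results. Germline ends were read from GRCm38.p6 with GENCODE vM21, or RefSeq where it lacks a segment. Named TRBC and TRAC segments are, per comparison, the 3 past the fold rule with the largest difference in each direction, with the 10 largest TRBC, 5 TRAC, 2 TRGC and 2 TRDC clonotypes; TRGC and TRDC V entries and Trbv16 and Trbv19 were named after their values were seen. Members and lists were chosen with earlier results of these data known. The scripts were tested on simulated data. Alternatives were stricter reads per UMI, clonotypes of at least 2 UMIs, merging of neighbouring sequences, leaving out large, leading or ambiguous clonotypes, a 2-fold rule, equal UMIs, listed Trav genes, amino acid clonotypes and all inner residues. One sequence is not reported here.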

Additional observations from a re-analysis of the deposited data

How the results depend on the processing

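Counts of features past the fold rule depended on the large clones when weighted by UMIs. Without clonotypes of at least 0.1%, V and J segments went from 18 to 3 (TRBC) and from 26 to 3 (TRAC), V-J pairs to 52 and 103, and residues to 0 and 0, while mean length differences were -0.11 (TRBC) and -0.092 (TRAC). Without the leading clonotype, residues were 0 (TRBC) and 1 (TRAC), length differences 0.22 and -0.29, and Trbj1-2 and Trav9 turned to log2 ratios of 0.36 and 0.18. Without clonotypes of at least 0.1%, Trav15, Traj22 and Traj9 turned to 0.17, -0.13 and 0.035. At 2-fold, UMI-weighted segments were 10 and 9, pairs 96 and 117, residues 0 and 0, and counted once segments were 1 and 0 and pairs 14 and 16. Counted once, main pairs of 30 (TRBC) and 27 (TRAC) became 17 and 12 with at least 2 UMIs and 19 and 17 with neighbours merged. TRAC pairs became 15 at 7 reads, 15 without ambiguous segments and 17 by amino acids. The 2 TRAC segments counted once became 1 at 7 reads, 0 with at least 2 UMIs, and 1 after merging, without ambiguous segments, by amino acids and at equal UMIs. With Trav genes as listed, TRAC segments were 84 by UMIs and 18 counted once. Without ambiguous segments, TRAC residues were 5 and length differences by UMIs 0.33 (TRBC) and -0.28 (TRAC), and TRBC counted once turned to 0.014. With all residues but the first and last, 1 TRAC residue passed by UMIs. With CDR3s of at most 20 residues, a choice made after the data were seen, TRBC length differences were 0.33 by UMIs and 0.016 counted once. Of 148 recomputed summary values 104 stayed within the limits set for them. Of 226 recomputed single-segment values 46 lost their call and 5 turned, and of 27 named segments 1, Traj53 by UMIs, passed under every setting, so 26 did not pass under at least 1 setting. No paired analysis was possible because each group is 1 library. The UMI totals limit single shares to counting error, and the spread between mice was not measured.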
